A study of Mus musculus with 13 samples.

Results

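The 35 genes described here encode aminoacyl-tRNA synthetases, 19 of them cytosolic and 16 mitochondrial, out of 18194 named genes on the 48 h arrays. They were chosen by symbol alone, as a letter for the amino acid followed by "ars" (or "prs" in Eprs), with an optional 1 or 2, plus Farsa and Farsb. A symbol that ends in 2 was taken as mitochondrial. On the second array type 34 of 19938 genes met the rule, 18 cytosolic and 16 mitochondrial, because the probe set of Aars there is also annotated to Exosc6 and was not used. No gene for aspartate was analysed here.

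Each synthetase joins 1 amino acid to the transfer RNAs that read its codons, and so supplies the charged tRNA that ribosomes consume. Mammalian cells keep 1 set of enzymes for the cytosol and a largely separate nuclear-encoded set that is imported into mitochondria, although single genes for the glycine and lysine enzymes (Gars, Kars) serve both places. Several cytosolic enzymes are bound together in a multisynthetase complex, and many cytosolic synthetase genes are known targets of the amino acid response factor Atf4, some also of Myc.

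The RNA came from B3, a mouse pre-B cell line transduced with mouse stem cell virus vectors that also express GFP through an internal ribosome entry site. At 48 h, 2 arrays held cells given HA-tagged wild-type Ikaros, the lymphoid zinc-finger transcription factor, and 2 held cells given HA-tagged 159A, an Ikaros mutant that cannot bind DNA. In the inducible system, HA-tagged Ikaros fused to the estrogen receptor hormone-binding domain (Ikaros-ERt2) was measured after 2 h and after 6 h of 4-hydroxytamoxifen, against cells that carried the ERt2 vector and had 6 h of the drug (vector-ERt2), with 3 arrays each. No Ikaros-ERt2 sample without the drug was analysed here, and the 2 h arrays have no vector arrays of their own time. A difference from vector-ERt2 cells that was present before the drug cannot be told apart from one that followed it. Genes said below to fall or rise were called lower or higher than in the comparison cells. Vector-ERt2 replicate 1 has a title that names the vector but a genotype field that names inducible Ikaros. The titles speak of biological replicates, but nothing states that each was its own culture, and p-values therefore describe only how far these arrays differ. All values are log2 array signals, and the 2 array types were normalized separately, so no level is set across them.

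In the inducible system the transgene followed the titles. Ikzf1, the gene for Ikaros, averaged 13.28 ± 0.10 in Ikaros-ERt2 cells at 2 h and 13.26 ± 0.04 at 6 h, against 9.27 ± 0.12 in vector-ERt2 cells (SD, n = 3 each), and replicate 1 of the vector was at 9.16. At 48 h, where both groups carry an Ikaros transgene, Ikzf1 averaged 12.04 ± 0.057 in Ikaros cells and 11.71 ± 0.15 in 159A cells (SD, n = 2 each) on its brightest probe set and was not called, while the mean over all its probe sets had a log2 change of -4.01. All 7 pre-B markers measured were above the median gene in every group, and several moved between groups, with 2 higher and 2 lower in Ikaros cells at 48 h (log2 changes over the list of -5.92 to 2.12), 1 lower at 2 h and 3 lower at 6 h. Of 4 T-cell markers 0 were above it on the 48 h arrays and 1 on the second type, in each group. Of 5 myeloid markers 1 was above it in 159A cells at 48 h and 0 in every other group, with the highest at 2.65 in Ikaros cells and 4.39 in 159A cells. Of 2 erythroid markers 1 was above it in both 48 h groups, and the 1 measured on the second type was below it in each group. The 4 fibroblast markers were at the floor of the 48 h arrays, between 2.19 and 2.31, while 3 of them were above the median gene on the second type, with ranges of 4.73 to 6.41 at 2 h, 4.80 to 6.41 at 6 h and 4.75 to 6.41 in vector-ERt2 cells. The part of these markers in any result below was not tested.

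Promoters of 26 members, 12 cytosolic and 14 mitochondrial, were found in RefSeq (GRCm38.p6), each covering 250 bases before to 50 after a transcript start that RefSeq lists. For Aars2, with several listed, the first was taken. The listed start was within 50 bases of the outer end of the gene for 18 of the 26 and farther inside the gene for 8, among them Tars2 (1388 bases inside) and Aars (6064 bases inside), so for these the window is not that of the outermost start. They are shown for the mitochondrial gene that fell at both 6 h and 48 h, for its cytosolic partner, for the called cytosolic gene with the most motif matches and for the cytosolic gene with the highest change at 48 h. Capitals mark matches, on either strand, to CACGTG (the E-box core bound by Myc among others), TGATGNAA (a core of the sites bound by Atf4 and its partners) or TGGGAA (the core recognised by Ikaros). None of these motifs overlapped in the 4 sequences. The regions are chr3:95754928-95755227 on the minus strand for Tars2, chr15:11399609-11399908 on the minus strand for Tars, chr8:111033592-111033891 on the plus strand for Aars and chr9:108507755-108508054 on the plus strand for Qars, each written 5′ to 3′ along its gene.
Tars2: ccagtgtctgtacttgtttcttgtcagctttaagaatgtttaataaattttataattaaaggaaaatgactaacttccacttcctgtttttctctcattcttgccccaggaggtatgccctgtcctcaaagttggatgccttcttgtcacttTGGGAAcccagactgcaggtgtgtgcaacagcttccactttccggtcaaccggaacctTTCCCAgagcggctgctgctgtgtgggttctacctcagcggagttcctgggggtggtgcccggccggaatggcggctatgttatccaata
Tars: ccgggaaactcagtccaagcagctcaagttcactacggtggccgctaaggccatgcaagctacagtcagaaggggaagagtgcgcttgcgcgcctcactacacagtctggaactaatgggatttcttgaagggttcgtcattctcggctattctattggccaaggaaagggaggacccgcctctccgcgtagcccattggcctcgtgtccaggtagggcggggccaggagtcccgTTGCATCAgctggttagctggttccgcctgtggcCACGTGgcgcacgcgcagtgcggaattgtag
Aars: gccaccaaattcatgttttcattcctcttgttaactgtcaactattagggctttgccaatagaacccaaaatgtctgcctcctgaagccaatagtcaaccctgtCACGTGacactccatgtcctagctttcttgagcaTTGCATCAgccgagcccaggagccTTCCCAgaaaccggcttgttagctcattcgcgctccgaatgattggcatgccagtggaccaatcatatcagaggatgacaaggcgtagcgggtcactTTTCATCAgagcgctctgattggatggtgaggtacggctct
Qars: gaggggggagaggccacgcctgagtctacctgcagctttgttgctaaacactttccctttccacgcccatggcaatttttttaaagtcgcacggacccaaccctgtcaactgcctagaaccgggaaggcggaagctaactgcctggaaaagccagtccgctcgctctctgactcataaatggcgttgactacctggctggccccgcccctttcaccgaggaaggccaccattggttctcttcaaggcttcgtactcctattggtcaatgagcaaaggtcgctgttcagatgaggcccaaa

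TGATGNAA was found in 5 of the 12 cytosolic promoters (Aars, Gars, Iars, Tars and Yars) and in 0 of the 14 mitochondrial ones, against 3.97% of all 32851 promoters. CACGTG was found in 4 cytosolic promoters (Aars, Farsb, Iars and Tars) and 1 mitochondrial promoter (Ears2), against 7.15% of all promoters. Aars, Iars and Tars held both motifs, as did 0.201% of all promoters. TGGGAA, which is in 25.6% of all promoters, was found in 3 members (Aars, Farsb and Tars2). Tars2 held it at 2 places, at positions -98 and -40 from the listed start, and 3.79% of all promoters hold it more than once. The Qars window contains none of the 3 motifs. A match is a run of letters and not evidence of binding. The 8 windows farther inside the gene are those of cytosolic Aars, Eprs and Yars and mitochondrial Aars2, Fars2, Nars2, Tars2 and Wars2. For these 8 the search did not use the window of the outermost start.

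At 48 h, 5 of 19 cytosolic and 1 of 16 mitochondrial synthetase genes fell in Ikaros cells relative to 159A cells. The cytosolic genes that fell were Mars1, Farsb, Aars, Kars and Rars, 0 rose, and the median log2 change was -1.01, with a range of -2.31 to 0.49. Among 16 mitochondrial genes Tars2 fell, 0 rose, and the median was -0.21, with a range of -2.04 to 0.36. Over all 10916 genes tested the median change was 0 and 8.47% were called lower (6.38% higher, 14.8% in either direction) by limma at an adjusted p under 0.05. So 5 of 19 cytosolic members stand against a background of 8.47%, and 1 of 16 mitochondrial members is near that background. The difference between the compartments was not tested. All 35 members, and all 34 on the second array type, were high enough to be tested. In RNA from whole cultures, fewer cells of a kind and less RNA per cell cannot be told apart.

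Direction was more uniform than the calls. The change was negative in 17 of 19 cytosolic and 12 of 16 mitochondrial genes, against 48.6% of all genes tested. Both Ikaros arrays were below both 159A arrays for 16 cytosolic and 9 mitochondrial genes, which happened for 30% of all genes tested. At an unadjusted p under 0.05 there were 13 of 19 cytosolic and 5 of 16 mitochondrial genes, against 33.7% of all genes tested, so the mitochondrial share is near the background.

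**Figure D1:**
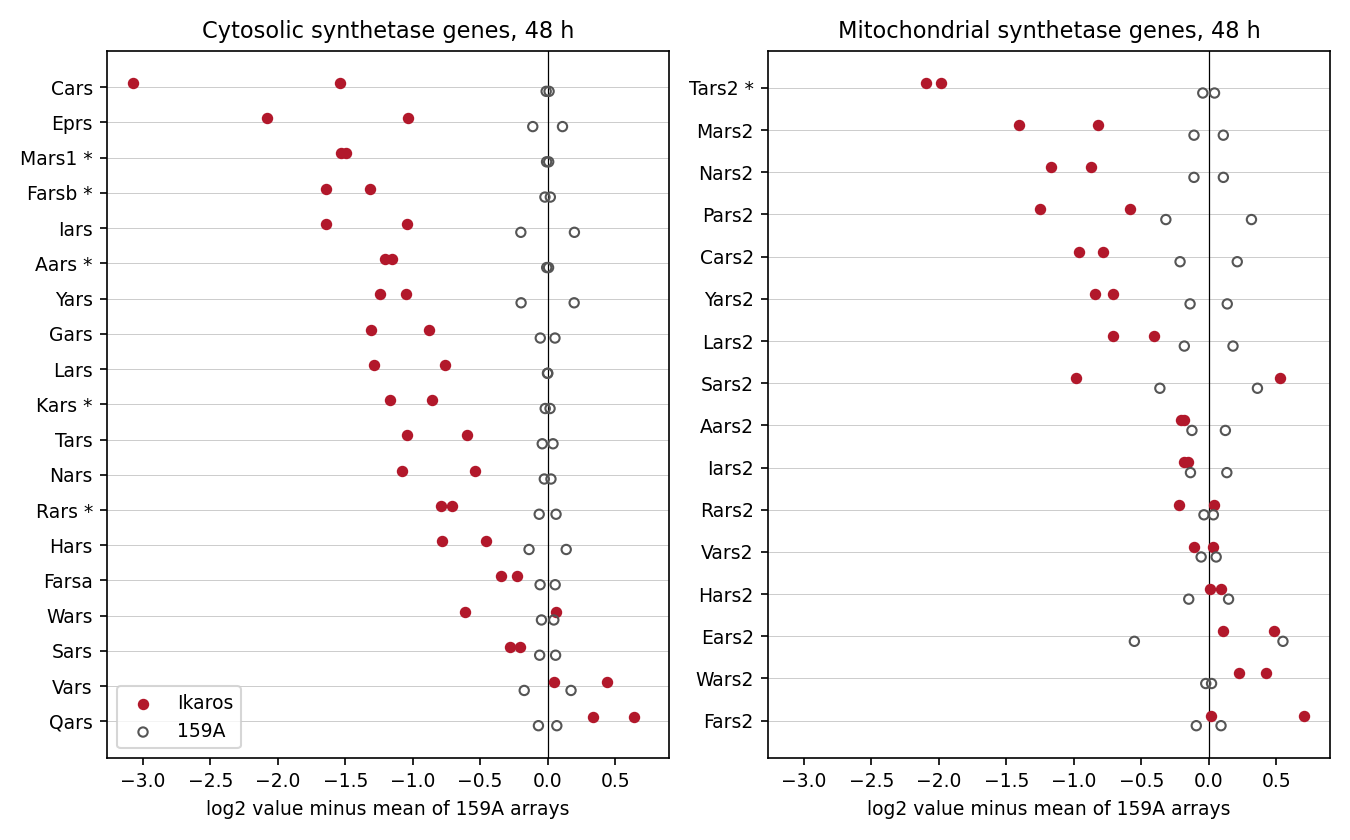
Log2 value of every member on each of the 4 arrays at 48 h minus the mean of that gene's 159A arrays (horizontal), with Ikaros arrays as filled and 159A arrays as open points, cytosolic and mitochondrial genes in separate panels and called genes starred. The cytosolic panel shows most Ikaros points to the left of the 159A points, with Qars (14.09 and 13.78 in Ikaros cells, 13.38 and 13.51 in 159A cells) the other way round, and the mitochondrial panel shows the widest gap at Tars2.

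Mars1, the cytosolic methionine enzyme and a member of the multisynthetase complex, read 10.07 and 10.11 in Ikaros cells, against 11.59 and 11.61 in 159A cells. Its groups lay far apart relative to the gap within each, and the log2 change was -1.51 ± 0.057 (SE, 2.85-fold lower, limma adjusted p = 0.018). Farsb, the beta subunit of the cytosolic phenylalanine enzyme, read 11.19 and 10.86 in Ikaros cells, against 12.49 and 12.53 in 159A cells. It was lower on both Ikaros arrays, by -1.48 ± 0.15 (limma adjusted p = 0.034), whereas Farsa, the alpha subunit of the same enzyme, changed by -0.29 and was not called. Aars, which charges alanine, read 10.08 and 10.02 in Ikaros cells, against 11.22 and 11.24 in 159A cells. The groups did not overlap, and the change was -1.18 ± 0.059 (2.27-fold lower, limma adjusted p = 0.0201).

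Kars and Rars, the lysine and arginine enzymes, are both held in the multisynthetase complex and changed less. Kars read 10.82 and 11.13 in Ikaros cells, against 11.97 and 12.01 in 159A cells. Its Ikaros arrays differed by more than its 159A arrays, and its change of -1.01 ± 0.14 was just inside the threshold (limma adjusted p = 0.0497). Rars read 11.06 and 10.97 in Ikaros cells, against 11.83 and 11.70 in 159A cells. The change was -0.75 ± 0.083 (1.68-fold lower, limma adjusted p = 0.0369), with both Ikaros arrays below both 159A arrays.

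Tars2, which charges threonine in mitochondria, had the largest change among the called members. It read 8.56 and 8.45 in Ikaros cells, against 10.59 and 10.50 in 159A cells. The gap between the groups was many times the gap within them, and the change was -2.04 ± 0.080 (4.11-fold lower, limma adjusted p = 0.0182). A second Tars2 probe set gave -1.92.

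Larger changes than some of those called came with a wider spread. Cars, the cysteine enzyme, read 4.22 and 5.76 in Ikaros cells, against 7.29 and 7.31 in 159A cells, a change of -2.31 ± 0.65 (limma adjusted p = 0.135). Eprs, a fused enzyme for glutamate and proline and part of the complex, read 9.52 and 10.57 in Ikaros cells, against 11.50 and 11.72 in 159A cells, a change of -1.56 ± 0.46 (limma adjusted p = 0.142). In both genes the 2 Ikaros arrays lay far from each other but below both 159A arrays. Iars, Yars, Gars and Lars, for isoleucine, tyrosine, glycine and leucine, had changes of -1.34 to -1.02 without a call. Tars, Nars and Hars, for threonine, asparagine and histidine, lay between -0.82 and -0.62, and Farsa, Wars and Sars, for phenylalanine, tryptophan and serine, between -0.29 and -0.24.

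Only 2 cytosolic genes had a positive change. Qars, the glutamine enzyme, has no mitochondrial partner in mammals, which make mitochondrial glutaminyl-tRNA by another route. It read 14.09 and 13.78 in Ikaros cells, against 13.38 and 13.51 in 159A cells, a change of 0.49 ± 0.15 that was not called (limma adjusted p = 0.157). Its Ikaros arrays were both above its 159A arrays. Vars, the valine enzyme, changed by 0.24, with overlapping arrays.

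Among mitochondrial genes without a call, 5 had changes of -1.11 to -0.78, namely Mars2, Nars2, Pars2, Cars2 and Yars2, and Nars2 came closest to the threshold (-1.02 ± 0.16, limma adjusted p = 0.0596). Lars2 was at -0.56. Sars2, Aars2, Iars2, Rars2, Vars2 and Hars2 lay between -0.23 and 0.05, and Ears2, Wars2 and Fars2 between 0.30 and 0.36. The signs of Sars2, Aars2 and Vars2 turned under another scaling of the arrays.

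The calls at 48 h rest on 4 arrays. With any 1 of the 4 left out, limma called 0 members and 0 of all genes, while 5 to 13 cytosolic and 3 to 5 mitochondrial genes had an unadjusted p under 0.05, and the adjusted p of the 6 called members was 0.0807 to 0.275. Their changes kept their direction in each of these fits.

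A total of 72 probe sets on the 48 h arrays carried a member symbol, and 23 genes had more than 1. Of 37 further probe sets, 12 were within 1 log2 unit of the array floor in both groups. Of the other 25, 23 changed in the same direction as the probe set that stood for the gene. The exceptions were a Farsa probe set with a change of 0 and a second Wars2 probe set at -0.34. Farsb had 3 other probe sets, which gave -1.89, -1.82 and -1.32, and the second Aars probe set gave -1.17.

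The cytosolic genes were also set out by the multisynthetase complex. Of its 7 enzymes measured (Eprs, Iars, Kars, Lars, Mars1, Qars and Rars), 3 fell at 48 h, and the median log2 change was -1.02, with 6 negative. Of the 12 cytosolic genes outside the complex 2 fell, and the median was -0.81, with 11 negative. Over all genes tested 8.47% were called lower and 48.6% had a negative change. The genes in the complex were not tested against those outside it. Aimp2, a scaffold protein of the complex, averaged 8.49 ± 0.022 in Ikaros cells and 10.72 ± 0.12 in 159A cells (SD, n = 2 each) and fell by 2.23 on the log2 scale (limma adjusted p = 0.0184). The scaffold proteins Eef1e1 and Aimp1 changed by -1.41 and -0.17 without a call.

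**Figure D2:**
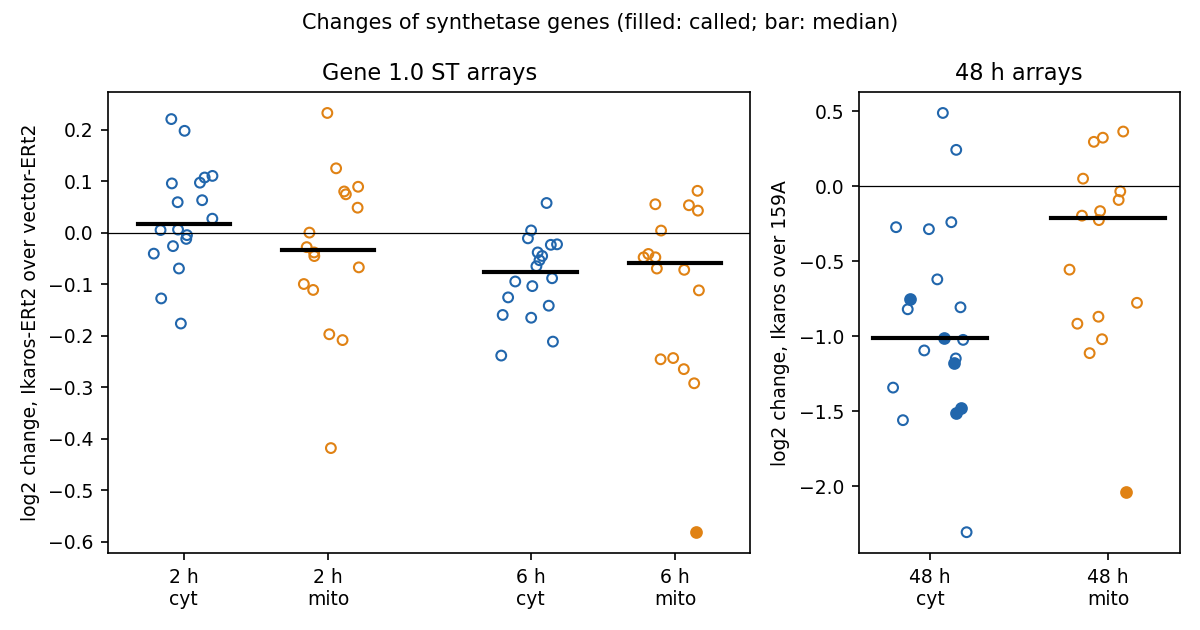
Log2 change of each member at 2 h and 6 h (Ikaros-ERt2 over vector-ERt2) and at 48 h (Ikaros over 159A), one point per gene, cytosolic (cyt) and mitochondrial (mito) genes apart, called genes filled and medians drawn as bars, with a different vertical scale for each array type. Medians are close to 0 at 2 h and 6 h and at -1.01 for cytosolic genes at 48 h, and Tars2 is the lowest mitochondrial point at 6 h (-0.58) and 48 h (-2.04).

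After 2 h of drug, 0 of 18 cytosolic and 0 of 16 mitochondrial genes were called by limma, against 1.86% of 11963 genes tested (1.1% lower and 0.769% higher). An unadjusted p under 0.05 was reached by 3 of 18 cytosolic and 4 of 16 mitochondrial genes, against 14.1% of all genes. With limma's trended and robust variance 0 were called as well. The median log2 change was 0.016 for cytosolic and -0.033 for mitochondrial genes, against -0.0071 over all genes, and 16 of the 34 changes were negative, against 52.8% of all genes. Nars2, the mitochondrial asparagine enzyme, read 6.45, 6.45 and 6.54 in Ikaros-ERt2 cells at 2 h, against 7.05, 6.93 and 6.72 in vector-ERt2 cells. All 3 Ikaros-ERt2 arrays were below the vector arrays, but its change of -0.42 ± 0.11 did not pass (limma adjusted p = 0.0898). Mars2 changed by -0.21 ± 0.086 with overlapping arrays.

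Vars and Cars had the smallest p among cytosolic genes at 2 h. Vars read 9.89, 9.86 and 9.96 in Ikaros-ERt2 cells at 2 h, against 10.05, 10.02 and 10.18 in vector-ERt2 cells, a change of -0.18 ± 0.068 (limma adjusted p = 0.264). Cars read 9.35, 9.39 and 9.41 in Ikaros-ERt2 cells at 2 h, against 9.17, 9.18 and 9.22 in vector-ERt2 cells, a change of 0.20 ± 0.078 (limma adjusted p = 0.273). The arrays of each gene were fully separated, in opposite directions. In all, 4 members had every 2 h array below every vector array and 4 had every 2 h array above, which happened for 9.4% and 9.23% of genes tested.

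After 6 h, Tars2 alone among the members had fallen. It read 7.73, 7.81 and 7.74 in Ikaros-ERt2 cells at 6 h, against 8.40, 8.16 and 8.47 in vector-ERt2 cells, and 8.13, 8.12 and 8.18 in Ikaros-ERt2 cells at 2 h. Every 6 h array was below every vector array and every 2 h array, while the 2 h and vector arrays overlapped. The change at 6 h was -0.58 ± 0.083 (1.5-fold lower, limma adjusted p = 0.0023), that at 2 h -0.20 ± 0.083 (limma adjusted p = 0.31), and that of 6 h over 2 h -0.38 ± 0.083 (limma adjusted p = 0.0655). The 2 h and 6 h comparisons share the vector arrays. The Tars2 call at 6 h was kept under all 8 alternative settings and with each of the 9 arrays left out in turn, with log2 changes between -0.67 and -0.52.

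**Figure D3:**
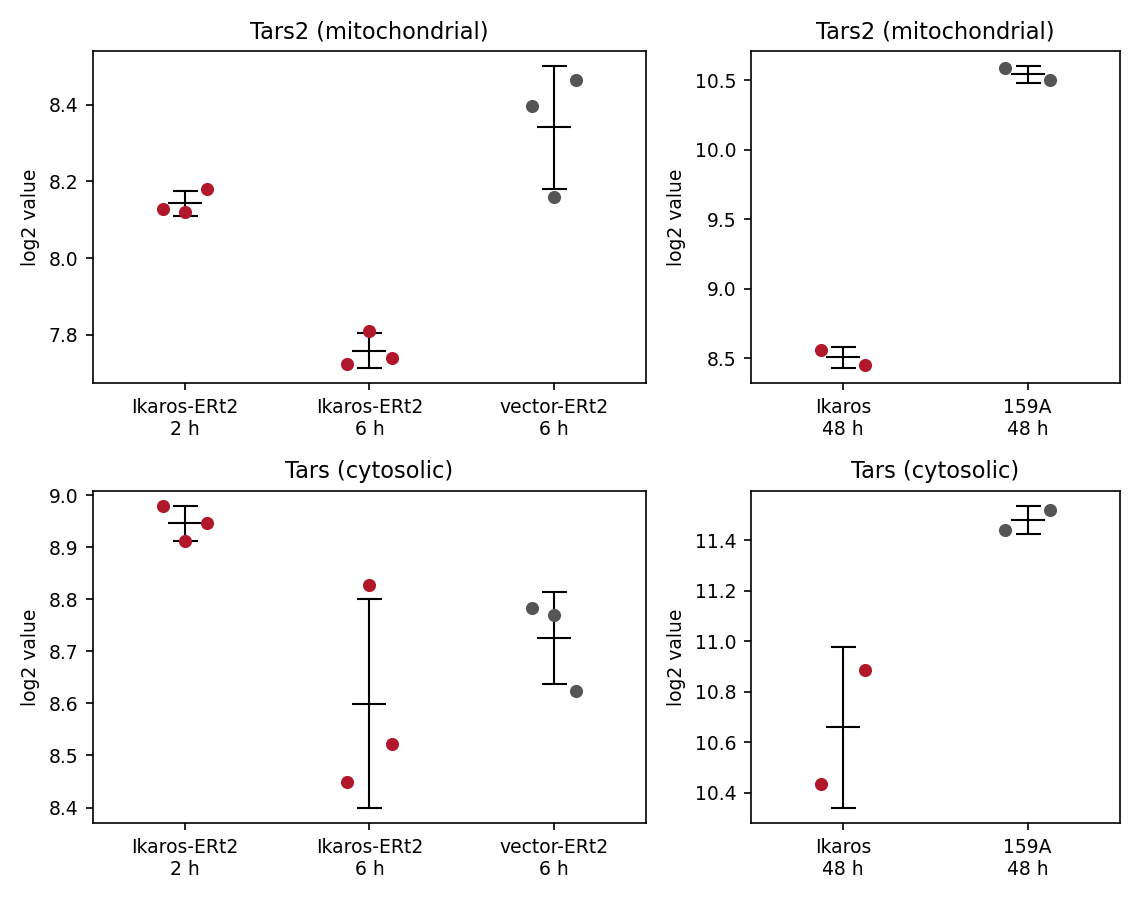
Log2 signal of Tars2, the mitochondrial threonine enzyme, and Tars, the cytosolic one, on every array, with the inducible arrays (2 h, 6 h and vector, 3 each) and the 48 h arrays (Ikaros and 159A, 2 each) in separate panels with their own scales, and mean and SD drawn as lines. Tars2 at 6 h lies between 7.73 and 7.81, below all vector arrays (8.16 to 8.47), while the Tars arrays at 6 h (8.45 to 8.83) overlap the vector arrays (8.62 to 8.78).

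The other 33 members were not called at 6 h, where 3.2% of genes tested were called lower, 2.58% higher and 5.78% in either direction. In 7 of the 34 every 6 h array was below every vector array, which happened for 10.3% of genes tested. Cytosolic genes had a median of -0.077, with 16 of 18 negative, and mitochondrial genes a median of -0.059, with 11 of 16 negative, against -0.00016 over all genes and 50.1% negative. At an unadjusted p under 0.05 there were 2 of 18 cytosolic and 5 of 16 mitochondrial genes, Tars2 included, against 17.8% of all genes. Farsa read 8.36, 8.46 and 8.21 in Ikaros-ERt2 cells at 6 h, against 8.59, 8.52 and 8.64 in vector-ERt2 cells, and Kars read 9.03, 9.11 and 8.89, against 9.21, 9.23 and 9.24 in vector-ERt2 cells. Both were lower on all 6 h arrays, with changes of -0.24 ± 0.078 and -0.21 ± 0.076 (limma adjusted p = 0.114 and 0.155). Without replicate 2 of the vector, which gave the lowest vector value of Cars2 (7.33) and of Mars2 (7.66), 3 mitochondrial genes were called in place of 1, with Cars2 at -0.38 and Mars2 at -0.33 joining Tars2.

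Set against 2 h, the 6 h arrays gave 0 calls in either compartment by limma, against 0.903% of all genes tested (0.527% lower and 0.376% higher), with 4 of 18 cytosolic and 2 of 16 mitochondrial genes at an unadjusted p under 0.05, against 13.6% of all genes. The trended and robust variance also gave 0. The medians were -0.12 for cytosolic and -0.040 for mitochondrial genes, against 0.0088 over all genes. The change was negative in 28 of 34 members, against 47% of all genes. Every 6 h array was below every 2 h array for 12 members and above for 2, which happened for 6.91% and 7.9% of all genes. Tars and Cars, and in mitochondria Tars2 and Yars2, the tyrosine enzyme, had the smallest p. Tars read 8.45, 8.83 and 8.52 at 6 h, against 8.98, 8.91 and 8.95 at 2 h, a change of -0.35 ± 0.097 (limma adjusted p = 0.137). Cars read 9.02, 9.30 and 9.12 at 6 h, against 9.35, 9.39 and 9.41 at 2 h, a change of -0.24 ± 0.078 (limma adjusted p = 0.199). Yars2 read 7.43, 7.80 and 7.54 at 6 h, against 7.98, 7.84 and 7.98 at 2 h, a change of -0.34 ± 0.11 (limma adjusted p = 0.189). In all 3 genes each 6 h array was below each 2 h array, and replicate 2 was the nearest to them. Without that replicate Tars was called, at -0.46 (limma adjusted p = 0.0313).

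The calls at 6 h and 48 h shared Tars2, which is 1 of 1 call at 6 h and 1 of 6 at 48 h. Of the 34 genes measured on both array types, 27 had a negative change at 6 h, 28 at 48 h and 24 at both. Over all genes tested the negative share was 50.1% at 6 h and 48.6% at 48 h. With so many members negative at each time, most would be negative at both without any link, and a link was not tested.

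For 13 amino acids, 1 cytosolic gene for that amino acid alone could be set beside 1 mitochondrial gene. At 48 h the cytosolic gene had the more negative change for 10 of them and the mitochondrial gene for 3 (asparagine, threonine and valine). The difference, cytosolic minus mitochondrial, had a median of -0.47 and ran from -1.44 for cysteine to 1.22 for threonine. At 6 h, with 12 pairs, the cytosolic gene was the more negative in 4 and the mitochondrial gene in 8, with a median difference of 0.036. At 2 h the split was 6 and 6. Glutamate, proline and phenylalanine were left out, because Eprs serves both of the first and Farsa and Farsb are subunits of 1 enzyme. At 48 h Eprs changed by -1.56 beside 0.30 for Ears2 and -0.92 for Pars2, and Farsa and Farsb changed by -0.29 and -1.48 beside 0.36 for Fars2.

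**Figure D4:**
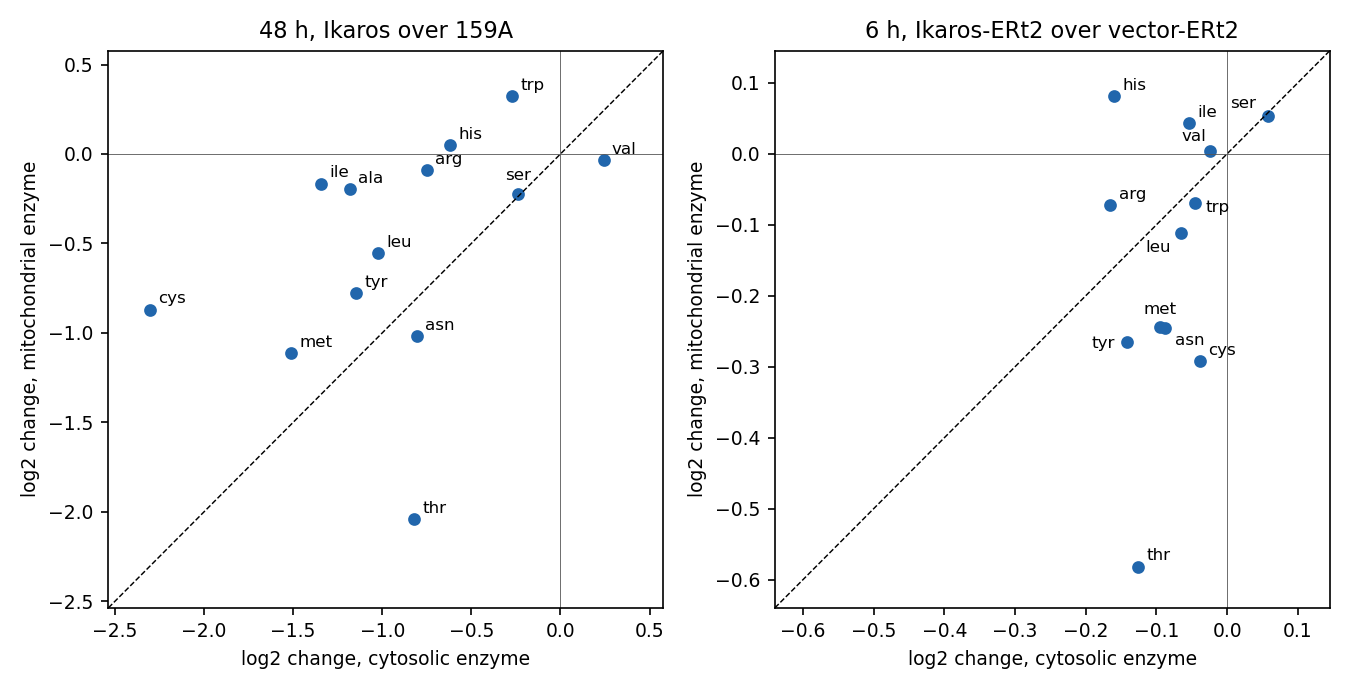
Log2 change of the mitochondrial enzyme (vertical) against that of the cytosolic enzyme (horizontal) for each amino acid, at 48 h (Ikaros over 159A, 13 pairs) and at 6 h (Ikaros-ERt2 over vector-ERt2, 12 pairs), with the line of equal change dashed. At 48 h 10 points lie above the line, where the cytosolic change is the more negative, and threonine lies farthest below it in both panels.

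By promoter letters, the 5 cytosolic genes with TGATGNAA changed by -1.34 to -0.82 at 48 h, with a median of -1.15. The 7 cytosolic genes whose promoter lacked it changed by -1.56 to 0.49, with a median of -1.01. The listed starts of Aars and Yars, which held it, and of Eprs, which lacked it, lie farther inside the gene (1627 bases for Eprs). Cytosolic genes for which no promoter was found are in neither group. The difference between the groups was not tested.

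Other genes that make or use charged tRNA were counted in the same fits. In the list of tRNA processing, modification and editing genes, 8 of 22 fell and 1 rose at 48 h, with a median of -0.96, against 8.47% of all genes tested called lower and 6.38% higher. Rpp40, a protein subunit of RNase P, fell by 2.72 on the log2 scale. Trmt61a, the catalytic part of the tRNA m1A methyltransferase, fell by 2.35, and Nsun2, a tRNA cytosine methyltransferase, fell by 2.19. Prorsd1, a protein related to the editing domain of prolyl-tRNA synthetases, was the gene that rose (1.21). At 6 h, 3 of the 22 fell (median -0.15), against 3.2% of all genes tested called lower. They were Trmt61a (-0.73 ± 0.083), Nsun2 (-0.44 ± 0.076) and Elac2, the tRNA 3′ endonuclease (-0.34 ± 0.081). At 2 h none of the 22 passed in limma (3 at an unadjusted p under 0.05, against 14.1% of all genes, and the median was 0.01).

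For RNA polymerase III and its factors, which transcribe tRNA genes, 2 of 21 fell and 1 rose at 48 h (median -0.10), near the 8.47% lower and 6.38% higher over all genes. Gtf3c5, a subunit of the factor that binds tRNA gene promoters, and the polymerase subunit Polr3e both changed by -1.73. However, Polr3e changed by -0.90 with its probe sets averaged. Maf1, a repressor of the polymerase, rose by 0.58. The Maf1 call was kept in 3 of 7 alternative settings with all arrays, against 5 of 7 for Gtf3c5 and for Polr3e. Gtf3c5 averaged 9.31 ± 0.12 at 2 h and 9.16 ± 0.27 at 6 h in Ikaros-ERt2 cells, against 10.31 ± 0.066 in vector-ERt2 cells (SD, n = 3 each). It fell by 1.00 at 2 h and by 1.15 at 6 h (limma adjusted p = 0.0026 and 0.00048). In this list 1 of 20 genes was lower at 2 h and 2 of 20 at 6 h, the second being Polr3e (-0.39). Over all genes tested 1.1% were called lower at 2 h and 3.2% at 6 h.

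Among cytosolic elongation and initiation factors, 1 of 19 fell at 48 h (Eif3b, -0.98, with a list median of -0.56) and 1 of 19 at 6 h (Eif2b3, -0.37), against 8.47% and 3.2% of all genes called lower. Among mitochondrial translation factors 0 of 13 were called by limma at 48 h, with a median of -0.25. Of these 13, 3 had an unadjusted p under 0.05, against 33.7% of all genes. Mtif2, the mitochondrial initiation factor, fell by 0.70 at 2 h and by 0.75 at 6 h and was the only call of 14 at either time. Over all genes tested 1.86% were called in either direction at 2 h and 5.78% at 6 h. Eef1e1 of the multisynthetase scaffold fell by 0.41 at 6 h (limma adjusted p = 0.0355).

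In the list of amino acid response and amino acid synthesis genes, 7 of 20 fell at 48 h and 0 rose, against 8.47% lower and 6.38% higher over all genes, with a median of -1.73. Chac1, an enzyme that degrades glutathione, averaged 5.29 ± 0.34 in Ikaros cells and 9.79 ± 0.14 in 159A cells (SD, n = 2 each), a change of -4.50. Mthfd2, a mitochondrial folate enzyme, changed by -3.73, and Asns, which makes asparagine, by -3.11. Myc fell by 2.86 at 48 h. In Ikaros-ERt2 cells Myc fell by 1.32 at 2 h and fell by 1.46 at 6 h, when the list medians were 0.025 and 0.014. It was the only gene of the 21 tested in the list to fall at those times, against 1.1% and 3.2% of all genes called lower. Cth, the cystathionine gamma-lyase, rose by 0.46 at 6 h. The 6 h calls of Cth, Eef1e1, Elac2 and Eif2b3 were lost in most fits with an array left out, and all 4 were lost without vector-ERt2 replicate 1 (adjusted p 0.132 to 0.157). With all arrays kept, limma also lost all 4 when arrays were centred on their median (adjusted p 0.0514 to 0.0980). The same held with only the 2 groups compared (limma adjusted p 0.0687 to 0.0994). Cth and Eef1e1 were lost with no filter on low genes as well. Among the fits with an array left out, Cth stayed called only without Ikaros-ERt2 6 h replicate 1. Eef1e1 stayed called without Ikaros-ERt2 2 h replicate 2 or 3 or 6 h replicate 2, Elac2 without 2 h replicate 2 or 3 or vector replicate 2, and Eif2b3 without 2 h replicate 2 or 3, 6 h replicate 2 or vector replicate 3. With any 1 of the 4 arrays left out, none of these list genes stayed called at 48 h, and 0 genes passed in limma over the whole array.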

How the data were processed

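RNA of 13 samples was hybridised to 4 Mouse Genome 430 2.0 arrays (48 h) and 9 MoGene 1.0 ST arrays. The authors deposited 1 log2 value per probe set and array. GCRMA, RMA, limma and affy are listed in the submitters' processing notes, without versions or roles, and other settings are not given in sources used here. At 48 h, 36.7% of the deposited log2 values lay within 0.01 of the floor of 2.19, so changes near it have no exact size. Of 34 members on MoGene arrays, 14 had 2 or more arrays of any group at an identical value, against 53.9% of genes tested. Where such ties fall within a group, its spread can be too small (Aars2 had 8 of 9 identical, and Mars1 an SD of 0 at 2 h). Ties between groups, as in Cars2, do not narrow it.

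Probe sets with 1 annotated symbol were used (34958 of 45101 on the 48 h arrays and 21789 of 35556 on MoGene). Of the others, 932 and 1621 had several symbols, and 9211 and 12146 were unnamed here. The probe set with the highest mean stood for its gene. The lowest 40% of genes by mean were not tested, which left 10916 and 11963. Per array type, limma 3.58.1 in R 4.3.3 (lmFit, eBayes, two-sided) was fitted for 4 comparisons, with Benjamini-Hochberg adjustment over all genes tested and a threshold of 0.05. The 9 MoGene arrays shared 1 fit. The script was tested on simulated data. The number of arrays limits the precision. Pearson r between arrays of a group was 0.987 to 0.995 at 48 h and 0.989 to 0.994 on MoGene, against 0.967 to 0.973 and 0.989 to 0.993 between groups.

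The members and lists were chosen with earlier results of these data known. Per-array values are given for up to 5 called members per compartment and comparison with the largest change. Where none was called, they are given for the 2 with the smallest p, except for Mars2 at 2 h. From each other list, up to 3 called genes with the largest change were named with their changes, some also with group means and SD. Myc at 48 h was named beyond that limit. Ikzf1 is given mainly as group means and SD. Cars, Eprs, Qars and Vars at 48 h, Prorsd1, Eef1e1 and Aimp1 at 48 h, and Cars2 and Mars2 at 6 h were named after their values were seen. Same-numbered samples were not treated as pairs. Alternatives were other filters, scalings, probe set averaging, a trended and robust variance, a replicate block, only the groups compared, and each array left out.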

Additional observations from a re-analysis of the deposited data

Results flagged for a closer look

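Trmt61a, part of the tRNA m1A methyltransferase, differed between times under the same induction. Its change over vector-ERt2 cells was -0.73 at 6 h and -0.22 at 2 h, and the 6 h arrays tested directly against the 2 h arrays gave -0.51 (limma adjusted p = 0.0282). It averaged 6.91 ± 0.16 at 6 h and 7.42 ± 0.038 at 2 h (SD, n = 3 each). It did not pass when arrays were centred on their median (adjusted p = 0.0684), when only these groups were fitted (0.135), or when any of 6 arrays was left out (up to 0.124).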

How the results depend on the processing

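At 48 h the 5 cytosolic calls became 2 with no filter, 8 with the lowest 60% of genes not tested, and 0 with a replicate block or any array left out. The 1 mitochondrial call became 2 with the lowest 60% not tested, with arrays centred on their median or with probe sets averaged, and 0 with the block or any array left out. The cytosolic median of -1.01 moved to -0.92 with the lowest 60% not tested and -0.94 with centring (which shifts the median of all genes to 0.074), and ranged from -1.05 to -0.86 with arrays left out. The mitochondrial median of -0.21 moved to -0.56 with the lowest 60% not tested and -0.070 with quantile normalization, and ranged from -0.40 to -0.18 with arrays left out. With the lowest 60% not tested, Cars, Aars2, Ears2, Mars2, Sars2 and Wars2 were no longer among the genes tested. The changes of the other members are the same in that fit, so those medians moved only because members left. At 2 h the cytosolic median of 0.016 was -0.012 with quantile normalization and 0.010 to 0.055 with arrays left out. At 6 h the mitochondrial count was 3 without vector-ERt2 replicate 2. For 6 h over 2 h, leaving out Ikaros-ERt2 6 h replicate 2 gave 1 cytosolic call, the mitochondrial median ranged from -0.10 to -0.038 with arrays left out, and the mitochondrial count was 1 (Tars2) with the lowest 60% not tested or quantile normalization. Over all genes at 48 h, limma called 1621 (14.8%), but 185 with no filter (1.02%), 2022 with centring, 2247 with quantile normalization and 0 with the block. With the lowest 60% not tested limma called 1769 of 7278 genes (24.3%), 980 of them lower, so the background rose along with the member counts. For 6 h over 2 h it called 108 genes, but 33 with centring, 179 with quantile normalization, 59 with no filter and 0 with only those groups; at 6 h 692, but 436 with centring; at 2 h 223, but 128 with centring and 141 with no filter. Ikzf1 at 48 h was 0.33 and not called, and -4.01 with all its probe sets averaged (adjusted p = 0.0184). The causes of these moves were not tested, beyond fewer arrays, another number of genes tested or members removed by the filter. The samples share only a replicate number. Deviations of same-numbered arrays from their group means correlated at 0.572 at 48 h and at -0.258 to 0.244 on the second type. With 2 arrays a group, the 2 pairs at 48 h must give the same value, so it counts once. The block left Tars2 at 6 h called and took all 6 calls at 48 h to an adjusted p of 0.0554 to 0.0709. Over all alternatives, the 7 member calls were kept in 48 fits and lost in 35, with their sign kept, and members without a call gained one in 15 fits and stayed without in 2009, of which 79 had the other sign.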
